A study of Mus musculus with 4 samples.

Results

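Semaphorins and their receptors were read in RNA-seq of mouse myeloid cells with and without a myeloid deletion of PD-1. The 9 genes described are the semaphorins Sema4a, Sema4b, Sema4d, Sema6b and Sema7a, the plexins Plxnb2, Plxnc1 and Plxnd1, and the co-receptor gene Nrp1. They were picked by gene name out of the 24706 genes that carry a value, and Sema6b is among them because the study names it. Semaphorins are secreted or membrane-bound ligands that share a sema domain, and plexins are their main transmembrane receptors. Binding of the ligand switches the GTPase-activating part of the plexin and remodels the cytoskeleton and adhesion of the receiving cell, and neuropilins bind secreted class 3 semaphorins alongside class A plexins. The family is best known from axon guidance, and several members, Sema4a, Sema4d and Sema7a among them, are also known as regulators of leukocytes.

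The 4 libraries fell into 2 groups of 2, labelled wt and cko. The cko animals carry the alleles PD-1f/f; LysM-Cre in the study, where the lysozyme M (Lyz2) locus drives Cre in granulocytes, monocytes and macrophages, and Cre removes a part of Pdcd1 that lies between LoxP sites. The controls are called wild type in its methods and PD-1f/f in its results, and the floxed allele would in the latter case be shared by both groups. The cells are given as CD11b+ cells sorted from the liver at postnatal day 3 in the results, whereas the methods name RNA of fetal livers at postnatal day 2 and no sorting. The labels name myeloid cells and give no age, and no source says whether the 2 replicates of a group were separate animals or pools. P-values therefore measure only the spread between these libraries, which may be technical.

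Expression is given as FPKM, reads scaled by the length of the gene in kilobases and to 1000000 counted reads. The targeted Pdcd1 stood at 28.5 and 34.7 FPKM in the wt libraries and at 17.1 and 21.4 FPKM in the cko libraries, so that its RNA was still present in both of the latter. The log2 fold change of Pdcd1 (cko over wt) was -0.69 (SE 0.19, adjusted p = 0.218 from limma), and that of Lyz2, the locus that carries Cre, was -1.79 (SE 0.18, adjusted p = 0.183). The libraries held 17691505 to 22212407 counted reads. Itgam, which encodes CD11b, lay at 48.5 to 54.3 FPKM and Ptprc (CD45) at 58.1 to 75.1 FPKM. A second entry under the symbol Itgam had at most 0.1 FPKM in any library. The 14 neutrophil markers summed to 161515 and 137318 FPKM in wt and 110908 and 92217 FPKM in cko, but single markers went both ways. At an unadjusted p under 0.05 in limma, 4 were higher and 6 lower in cko. Of all tested genes 11.4% were higher and 4.95% lower at that limit. The 14 erythroid markers summed to 3867 and 2438 FPKM in wt against 1504 and 1600 FPKM in cko. The 12 hepatocyte markers summed to 92.8 and 157 FPKM in wt and 67.7 and 81.3 FPKM in cko. The part of these marker differences in the results was not tested. Wt replicate 2 stood apart by the Y-linked gene Ddx3y, at 24.9 FPKM against at most 0.00866 FPKM in the other libraries, and by 0.0119 FPKM of Xist against 4.91 to 7.98 FPKM. In such bulk libraries fewer cells of a type and less RNA per cell cannot be told apart.

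Among these 9 genes, Sema6b had the largest ratio of group means, while the abundant Sema4a and Sema4d differed by more in FPKM. Sema6b encodes a class 6 semaphorin, a transmembrane ligand of class A plexins that is known to act in axon guidance. The gene lies on the minus strand of chromosome 17 (GRCm38, chr17:56123085-56140343) and spans 17259 bp with 18 separate stretches of exon and 2 annotated transcripts (GENCODE M21). RefSeq gives it 2 start sites. The 250 bases before each start, in the assembly GRCm38.p6 and on the minus strand, are shown because Sema6b had the largest ratio of means. The outer window (chr17:56140344-56140593) ends where the gene begins. The inner window (chr17:56133853-56134102) lies within the span of the gene, directly before the inner start site.

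Sema6b inner promoter: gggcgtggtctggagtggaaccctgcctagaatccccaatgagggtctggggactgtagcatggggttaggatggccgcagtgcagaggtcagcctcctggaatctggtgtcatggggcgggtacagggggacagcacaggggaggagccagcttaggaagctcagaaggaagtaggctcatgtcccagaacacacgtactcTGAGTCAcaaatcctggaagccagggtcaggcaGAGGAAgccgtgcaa

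Sema6b outer promoter: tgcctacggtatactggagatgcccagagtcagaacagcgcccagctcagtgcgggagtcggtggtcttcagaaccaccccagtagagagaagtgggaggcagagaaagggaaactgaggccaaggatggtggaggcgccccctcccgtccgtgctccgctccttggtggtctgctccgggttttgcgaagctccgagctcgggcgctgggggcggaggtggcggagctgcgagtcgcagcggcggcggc

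Capitals mark matches to 4 motifs that were searched on both strands, AP-1 (TGANTCA), C/EBP (TTGCNNAA), PU.1 (GAGGAA) and the NF-κB consensus. The inner window held 1 AP-1 match, which begins 48 bases before the start, and 1 PU.1 match, which begins 15 bases before it. No match to these letters was present in the outer window, which had 66.0% G and C against 59.2% in the inner one and a median of 52.4% over all promoters. Among the 32817 promoter windows of 250 bases in the RefSeq table, 6.75% held the AP-1 letters, 23.3% the PU.1 letters, 9.57% the C/EBP letters and 3.9% the NF-κB consensus. The 9 genes matched 17 windows in that table, some of which overlap, and no motif matches overlapped. The other AP-1 match in them lay in a window of Sema4d (TGAATCA, 239 bases before the start). The C/EBP match lay in a window of Sema4a and the NF-κB match in another window of Sema4a. PU.1 matches were also present in windows of Sema4a, Sema4b, Plxnc1, Plxnd1 and Nrp1. The reads cannot be assigned to either start, since 1 value per gene was deposited.

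Sema6b had 0.0453 FPKM in wt replicate 1, 0.508 FPKM in wt replicate 2, 1.61 FPKM in cko replicate 1 and 3.68 FPKM in cko replicate 2. Both cko libraries thus lay above both wt libraries, and the libraries also differed within each group. These values rest on 4 and 38 reads in wt and on 120 and 259 reads in cko. Scaled to 1000000 counted reads, with 95% Clopper-Pearson intervals, this was 0.1801 (0.0491 to 0.461) and 2.02 (1.43 to 2.77) in wt and 6.40 (5.31 to 7.66) and 14.6 (12.9 to 16.5) in cko. No interval overlapped another, so that the spread between the 2 libraries of each group was larger than counting error. The intervals and all others of this kind cover counting error only. The mean was 0.276 ± 0.327 FPKM in wt and 2.65 ± 1.46 FPKM in cko (SD, n = 2), a ratio of means of 9.57.

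On the log2(FPKM + 1) scale of the test, which understates changes of low values, the log2 fold change of Sema6b was 1.48 with a standard error of 0.39 and a 95% interval from 0.51 to 2.44. Its unadjusted p in limma was 0.01002, and its adjusted p was 0.214. The former lies just above the limit of 0.01 that the study's results combine with a log2 fold change above 1. Its methods instead name a q (adjusted p) under 0.05, which Sema6b did not reach here. By its own test the study labels Sema6b as differentially expressed. It also reports a higher Sema6b mRNA level in cko by quantitative PCR, which is not part of the data used here. The effect size depended on how low values were treated, at 3.10 with a pseudocount of 0.1 and 4.04 with limma's voom on whole reads. Sema6b passed the limit of 0.01 with voom, without a mean-variance trend, under the replicate block, and when erythroid and hepatocyte genes were removed and the libraries rescaled to one total. It was 1.06 without cko replicate 2 (adjusted p = 0.501 from limma), 1.21 without wt replicate 1 (adjusted p = 0.615) and 1.74 without wt replicate 2, the library with Y-linked RNA (adjusted p = 0.382). Without cko replicate 1 it was 1.90 and passed the limit (adjusted p = 0.155 from limma).

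Next to Sema6b lies Lrg1, the gene of a secreted leucine-rich glycoprotein of neutrophils and liver, on the same strand and with its 5′ end 1139 bp beyond the 3′ end of Sema6b. Lrg1 had 797 and 831 FPKM in wt and 1917 and 1601 FPKM in cko, a log2 fold change of 1.11 (SE 0.15, adjusted p = 0.183 from limma). No annotated gene overlapped the exons of Sema6b. Whether reads were counted by strand is not given in the sources used here, and a part of Lrg1 in the Sema6b value was not tested. Of the other 7 genes within 50 kb of Sema6b, Plin5, a lipid droplet coat protein, was nearest, at 6.95 to 14.1 FPKM over the 4 libraries.

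Sema4a was the most abundant of the 9 genes. It encodes a membrane-bound class 4 semaphorin known from dendritic cells, where it costimulates T cells, and lies on chromosome 3 (GRCm38, chr3:88435959-88461182, minus strand, 20 separate stretches of exon). Sema4a had 71.6 and 90.1 FPKM in wt and 96.8 and 97.8 FPKM in cko. Both cko libraries lay above both wt libraries, but wt replicate 2 was closer to the cko libraries than to wt replicate 1. The means were 80.9 ± 13.1 FPKM in wt and 97.3 ± 0.736 FPKM in cko (SD, n = 2), from 8600 to 9803 reads per library. The log2 fold change of 0.27 (SE 0.16, 95% interval from -0.13 to 0.68) did not pass the test (adjusted p = 0.440 from limma). Without wt replicate 1 it was 0.11. Sema4a alone held 55.0% to 65.7% of the FPKM summed over the 9 genes.

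Sema4d was the second most abundant and was set apart by 1 library. Sema4d, also called CD100, binds class B plexins and, on lymphocytes, CD72, and lies on chromosome 13 (GRCm38, chr13:51701246-51793747, minus strand). Its values were 30.3 and 24.9 FPKM in wt and 28.3 and 55.0 FPKM in cko, from 4345, 3022, 3420 and 6276 reads. The groups overlapped, since cko replicate 1 lay between both wt libraries and cko replicate 2 lay above the other 3 libraries. The log2 fold change was 0.51 (SE 0.32, 95% interval from -0.29 to 1.31, adjusted p = 0.459 from limma). It was 0.04 without cko replicate 2 and 0.98 without cko replicate 1. In the same library Csf1r, the receptor for macrophage colony-stimulating factor, had 113 FPKM against 33.0 to 45.6 FPKM in the other libraries. The other genes of the monocyte list except Ly6c2 were also highest there, namely Ccr2, Cx3cr1, Fcgr1, Ms4a6c, F13a1, Irf8 and Klf4. Ly6c2, the most abundant of that list, had 315 FPKM there against 333 to 360 FPKM. Not all macrophage markers were highest there, since the Kupffer cell marker Clec4f had 33.7 FPKM against 38.5 FPKM in wt replicate 1. The 9 monocyte markers summed to 524 and 499 FPKM in wt and 516 and 652 FPKM in cko, and the 12 macrophage markers to 419 and 298 FPKM in wt and 308 and 522 FPKM in cko. All 9 monocyte markers and 11 of the 12 macrophage markers had a mean of at least 1 FPKM, and their part in the Sema4d value was not tested.

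Sema4b and Sema7a were low. Sema4b, a further class 4 semaphorin on chromosome 7 (GRCm38, chr7:80186841-80226527, plus strand), had 2.35 and 2.95 FPKM in wt and 3.02 and 2.69 FPKM in cko. The groups overlapped, the log2 fold change was 0.08 (SE 0.21, 95% interval from -0.43 to 0.60, adjusted p = 0.866 from limma), and its sign turned to -0.0027 under median-of-ratios scaling and to -0.05 under quantile normalization. Sema7a, on chromosome 9 (GRCm38, chr9:57940112-57962865, plus strand), encodes a semaphorin anchored in the membrane by a lipid that binds Plxnc1 and integrins. Sema7a had 0.341 and 0.242 FPKM in wt and 0.0971 and 0.0514 FPKM in cko, which rest on 25, 15, 6 and 3 reads. Both cko libraries lay below both wt libraries, the direction opposite to Sema6b. Scaled to 1000000 counted reads the values were 1.13 (95% interval 0.728 to 1.66) and 0.797 (0.446 to 1.31) in wt and 0.320 (0.117 to 0.697) and 0.170 (0.0350 to 0.496) in cko, so that the intervals of wt replicate 2 and both cko libraries overlapped. With a mean under 1 FPKM it was not in the test. Without that filter its log2 fold change was -0.26 (adjusted p = 0.499 from limma), and by voom on reads it was -1.90 (adjusted p = 0.483).

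**Figure D1:**
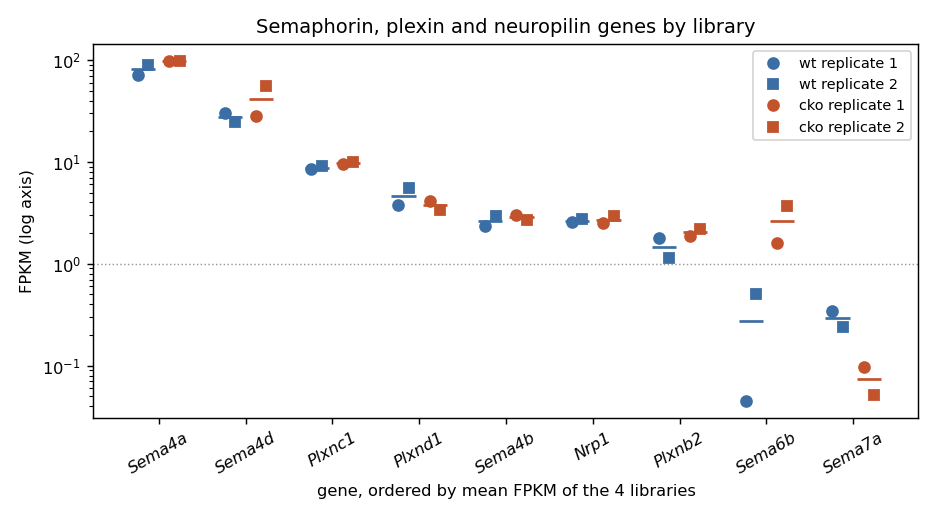
FPKM on a log axis for the 9 genes in each library (blue, wt; red, cko; circles, replicate 1; squares, replicate 2), ordered by their mean, with a bar at each group mean and a dotted line at 1 FPKM. Sema6b spans from 0.0453 to 3.68 FPKM with both cko points on top, Sema7a runs the opposite way below 1 FPKM, and the receptors Plxnc1, Nrp1 and Plxnd1 show close or overlapping points.

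Of the receptors, Plxnc1 was the most abundant. Plxnc1 encodes the receptor of Sema7a, known from monocytes and neutrophils, and lies on chromosome 10 (GRCm38, chr10:94790866-94944835, minus strand, 153970 bp). It had 8.53 and 9.09 FPKM in wt and 9.52 and 9.98 FPKM in cko. The cko libraries lay above the wt libraries by a small step, at 8.81 ± 0.397 against 9.75 ± 0.323 FPKM (SD, n = 2). The log2 fold change was 0.13 (SE 0.15, 95% interval from -0.25 to 0.52, adjusted p = 0.691 from limma), and it was 0.03 under median-of-ratios scaling and 0.04 under quantile normalization. The ligand Sema7a was thus at most 0.341 FPKM in the same libraries in which its receptor Plxnc1 was at least 8.53 FPKM.

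Plxnd1 was the only tested member with a lower mean in cko. It encodes a plexin of endothelial cells and thymocytes that binds Sema3e, and lies on chromosome 6 (GRCm38, chr6:115954811-115995005, minus strand). Its values were 3.78 and 5.50 FPKM in wt and 4.15 and 3.34 FPKM in cko. Cko replicate 1 lay between both wt libraries, so that the groups overlapped. The log2 fold change was -0.24 (SE 0.23, 95% interval from -0.81 to 0.33, adjusted p = 0.628 from limma), and it was -0.02 without wt replicate 2. Sema3e, a ligand of this plexin and not said here to be the only one, did not exceed 0.00970 FPKM in any library.

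Plxnb2, a class B plexin that binds class 4 semaphorins such as Sema4d, is on chromosome 15 (GRCm38, chr15:89155549-89171120, minus strand, as the files place it). Plxnb2 had 1.79 and 1.15 FPKM in wt and 1.88 and 2.19 FPKM in cko, from 154 to 283 reads. Both cko libraries lay above both wt libraries, with wt replicate 1 close to cko replicate 1. The log2 fold change was 0.31 (SE 0.25, 95% interval from -0.31 to 0.93, adjusted p = 0.556 from limma). Plxnb1, the other well-known receptor of Sema4d, was listed at 0 in 3 libraries and had 2 reads in cko replicate 1.

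Nrp1 encodes neuropilin-1, a co-receptor of class 3 semaphorins and of VEGF, and lies on chromosome 8 (GRCm38, chr8:128358604-128503363, plus strand). Nrp1 had 2.56 and 2.75 FPKM in wt and 2.49 and 2.91 FPKM in cko, so that the cko values enclosed the wt values. Its log2 fold change was 0.02 with a 95% interval from -0.48 to 0.51 (adjusted p = 0.978 from limma). The sign turned to -0.07 under median-of-ratios scaling and to -0.12 under quantile normalization.

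Ordered by their mean over the 4 libraries, per length, the levels ran Sema4a, Sema4d, Plxnc1, Plxnd1, Sema4b, Nrp1, Plxnb2, Sema6b and Sema7a. The ranges of neighbours in this order overlapped for Sema4b and Nrp1, for Plxnb2 and Sema6b, and for Sema6b and Sema7a, and the ranges of the other neighbours did not. In wt alone the mean of Sema6b (0.276 FPKM) was close to that of Sema7a (0.291 FPKM), whereas in cko it (2.65 FPKM) was close to that of Nrp1 (2.70 FPKM).

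Of the 9 genes 8 were tested, and 0 of 8 passed the threshold of a log2 fold change above 1 in size with an unadjusted p under 0.01, which 2.29% of the 10779 tested genes passed (203 genes, or 1.88%, higher and 44, or 0.408%, lower in cko). The number of genes past it moved with single libraries, from 247 to 147 without wt replicate 1, 131 without cko replicate 2 and 462 without cko replicate 1. At an unadjusted p under 0.05 there was 1 member, Sema6b, among 8, beside 16.4% of all tested genes. Sema6b reached the minimum mean of 1 FPKM only through its cko libraries (mean 0.276 FPKM in wt and 2.65 FPKM in cko). Sema7a, with a mean of 0.291 FPKM in wt and 0.0742 FPKM in cko, was left out. The study had also named Sema6b from these RNA-seq data, so that the count of 1 is no independent support. The methods of the study name an adjusted p under 0.05 with a log2 fold change of at least 1 in size. At these limits 0% of genes passed in limma, and 2 of 14224 genes passed by voom on reads, none of them a member. Both cko libraries lay above both wt libraries for 4 of the 8, Sema6b, Sema4a, Plxnb2 and Plxnc1, below for 0 and overlapped for 4, where the groups did not overlap for 51.6% of all tested genes, 33.6% above and 18.0% below. An exact permutation test of 1 gene with 2 libraries per group cannot give a two-sided p under 0.333. The median log2 fold change of the 8 was 0.20 and that of all tested genes 0.09. Of the 8 values 7 were positive and 1 negative, beside 6510 positive and 4269 negative among the 10779 tested genes. Sema4b and Nrp1, among the positive ones, turned negative under median-of-ratios scaling and under quantile normalization. The differences of the 8 genes and of their signal transducers are shown with their intervals in the plot of fold changes.

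**Figure D2:**
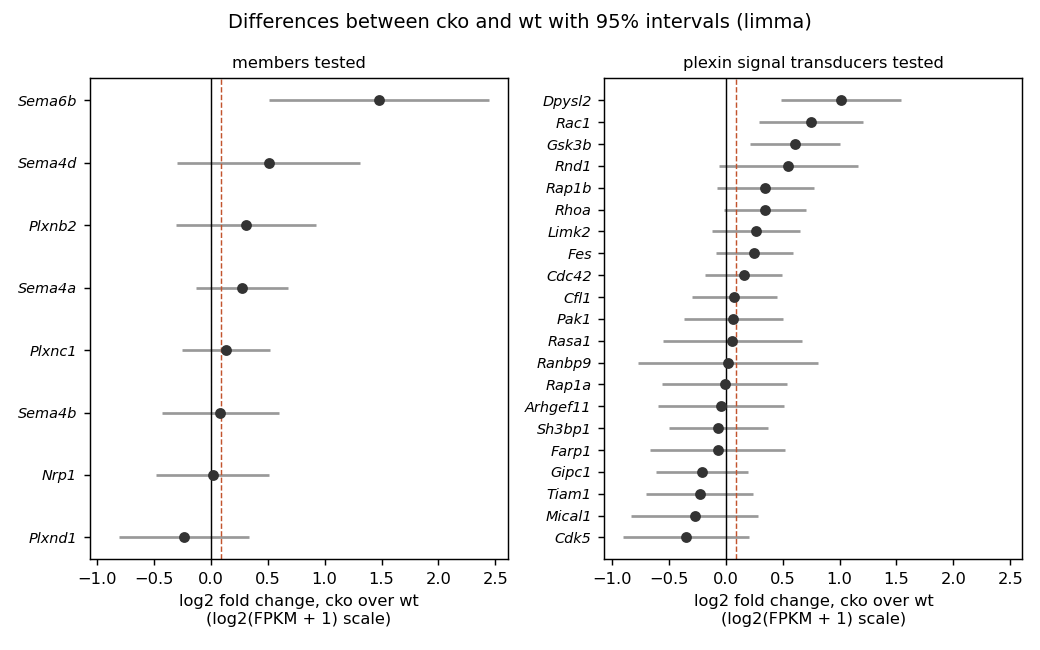
Log2 fold change (cko over wt, on the log2(FPKM + 1) scale) with its 95% interval from limma for the 8 members tested (left) and the 21 plexin signal transducers tested (right). The solid line marks 0 and the dashed line the median of all tested genes (0.09). Sema6b, Dpysl2, Rac1 and Gsk3b are the genes whose interval does not include 0, and the intervals are unadjusted.

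The rest of the family was mostly at or near 0. Of 22 further semaphorins, plexins and neuropilin, 20 carried a value, and Sema3c and Sema5b had no entry under these symbols among the 24706 genes. In every library 15 of the 20 were under 1 FPKM, and 11 of the 20 were listed at 0 in at least 1 library. The 6 class 3 genes, which encode secreted ligands of neuropilins, did not exceed 1.37 FPKM (Sema3g in wt replicate 2), and the 4 class A plexins, the receptors of Sema6b among them, did not exceed 0.299 FPKM (Plxna2 in wt replicate 1). Plxna4 had at most 0.0361 FPKM, or 9 reads. Nrp2, the second neuropilin, had 0.502 and 0.319 FPKM in wt and 0.608 and 1.44 FPKM in cko, and Plxnb3 0.757 to 1.17 FPKM over the 4 libraries.

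Sema4f and Sema6a were the only others with a mean of at least 1 FPKM. Sema6a, the class 6 relative of Sema6b, had 2.40 and 1.47 FPKM in wt and 0.845 and 1.47 FPKM in cko. Cko replicate 2 lay level with wt replicate 2, so that the groups overlapped, with a log2 fold change of -0.44 (SE 0.29, adjusted p = 0.478 from limma). Sema4f stayed between 1.42 and 1.91 FPKM in all 4 libraries (log2 fold change 0.02, adjusted p = 0.974). Of the 2, 0 had an unadjusted p under 0.05.

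**Figure D3:**
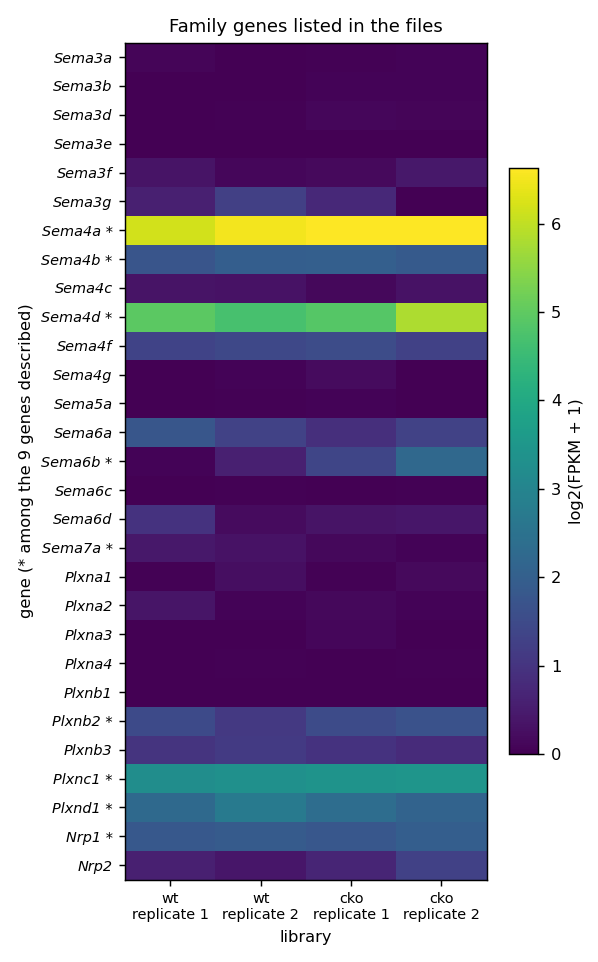
Heat map of log2(FPKM + 1) for the semaphorin, plexin and neuropilin genes (rows) in the 4 libraries (columns); an asterisk marks the 9 genes described. Sema4a, Sema4d and Plxnc1 form the bright rows, most other rows are dark in every library, and Sema6b brightens from wt to cko.

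Receptors other than plexins were tested for 6 of 11 listed genes, and 0 had an unadjusted p under 0.05, beside 16.4% of all tested genes. The 3 with the lowest p were Met, Tyrobp and Itgb1. Met, the hepatocyte growth factor receptor that pairs with class B plexins, had 0.645 and 0.685 FPKM in wt and 1.25 and 2.47 FPKM in cko (log2 fold change 0.75, SE 0.31, adjusted p = 0.311 from limma). Tyrobp, the DAP12 adaptor through which Sema6d and plexin A1 act in dendritic cells and osteoclasts, overlapped between groups at 115 to 195 FPKM (-0.32, adjusted p = 0.503). Itgb1, the integrin beta 1 chain that Sema7a binds, overlapped as well at 15.5 to 32.1 FPKM (0.34, adjusted p = 0.616). Of a list of 9 genes, VEGF ligands and receptors that use neuropilins and Tgfb1, only Kdr was tested. Its log2 fold change was 0.03 (adjusted p = 0.960 from limma).

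Signal transducers downstream of plexins were tested for 21 of 31 genes with a value, of which 3 were higher in cko at an unadjusted p under 0.05 and 0 lower, beside 11.4% and 4.95% of all tested genes. The first of the 3 was Dpysl2, which encodes the collapsin response mediator protein CRMP2 that binds tubulin. Dpysl2 had 5.73 and 8.32 FPKM in wt and 14.2 and 15.8 FPKM in cko, a log2 fold change of 1.01 (SE 0.21, adjusted p = 0.205 from limma), and was the 1 transducer past the threshold of log2 fold change and p, which 2.29% of all tested genes passed. Rac1, the GTPase of lamellipodia that binds class A and B plexins, had 11.2 and 13.3 FPKM in wt and 23.7 and 19.0 FPKM in cko (0.75, SE 0.18, adjusted p = 0.214). Gsk3b, the kinase that phosphorylates CRMP2, had 11.6 and 12.03 FPKM in wt and 20.03 and 17.1 FPKM in cko (0.61, SE 0.16, adjusted p = 0.214). Both cko libraries lay above both wt libraries for 9 of the 21 and below for 3, beside 33.6% and 18.0% of all tested genes, and the median log2 fold change of the 21 was 0.06 beside 0.09 over all tested genes. Over all of the family and pathway lists, the number with an unadjusted p under 0.05 changed with the library left out. The number over all tested genes changed as well.

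The genes whose profile over the 4 libraries was nearest to that of Sema6b were not protein-coding, as annotated. Nearness was the Euclidean distance of log2(FPKM + 1) after the mean of each gene was taken off, over 4 libraries, a scale on which the profile of Sema6b itself has a length of 1.64. The 5 nearest were Gm19280 (distance 0.191), Snord69 (0.220), Gm25149 (0.225), Gm15530 (0.235) and Gm43181 (0.243). The first 3 of these, a processed pseudogene, a small nucleolar RNA and a miRNA gene, had at most 14 reads in any library. With 4 libraries many genes can take such a course, and the distance is a description. The nearest protein-coding gene, picked after the values were seen, was Mreg (0.291), which encodes melanoregulin, a protein of organelle transport. Mreg had 0.670 and 1.02 FPKM in wt and 2.15 and 5.27 FPKM in cko.

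**Figure D4:**
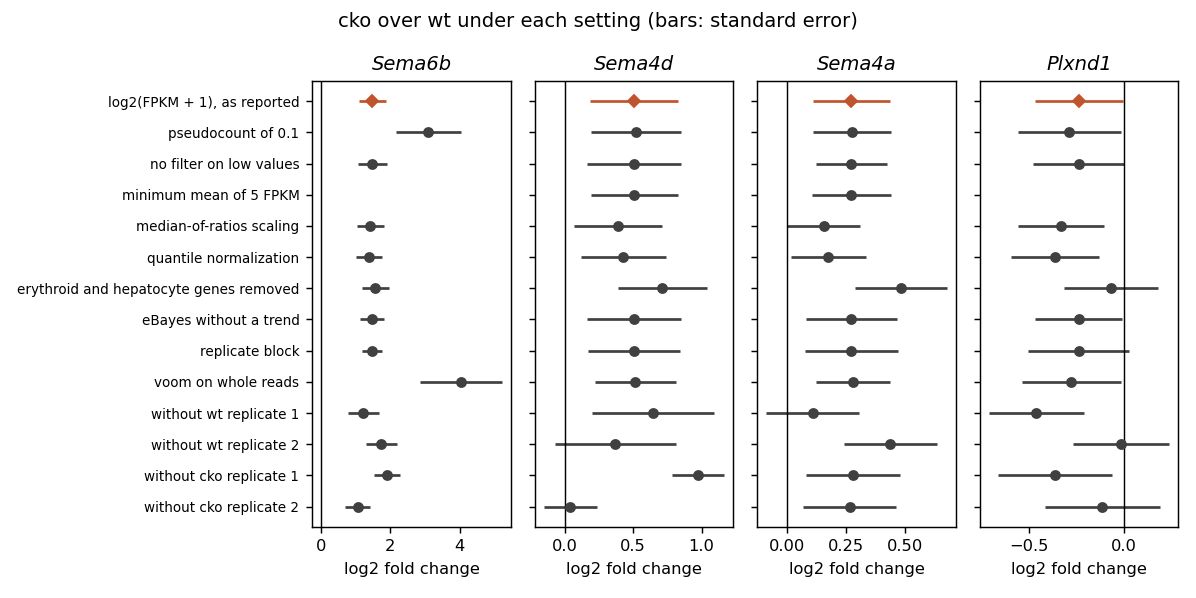
Log2 fold change (cko over wt) of Sema6b, Sema4d, Sema4a and Plxnd1 as reported (red diamond) and under each alternative setting (black circles), with bars of 1 standard error; each panel has its own axis, and a missing point means that the gene was under the minimum, and the removal of erythroid and hepatocyte genes includes the rescaling of the libraries. Sema6b stays above 0 in all settings shown and reaches 4.04 with voom, and Sema4d drops to 0.04 without cko replicate 2.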

How the data were processed

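The authors deposited 1 FPKM value per gene and library for 24706 genes. Their processing notes name Bowtie2 2.2.3, TopHat2 2.0.12, HTSeq 0.6.0 and the build mm9, whereas 92.61% of gene positions in the files were identical to GENCODE M21 (GRCm38), which was therefore used. In single-exon genes 99.94% to 99.97% of values were whole multiples of 1 read (within 0.02), which gave library totals, and reads for 98.78% of genes. For Sema6b, Sema4d and Plxnb2 the annotated length did not give whole reads, and the nearest length that did was used.

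Libraries were grouped by their labels. Differences were tested with limma 3.58.1 (R 4.3.3, lmFit, then eBayes with its trend option) on log2(FPKM + 1). No covariate was used, genes under a mean of 1 FPKM were left out, which kept 10779, and p-values were adjusted over all of them by the Benjamini-Hochberg method. The members, gene lists and the rule for named genes (the 9 members, Pdcd1, Lyz2, list genes with an unadjusted p under 0.05 or the 3 lowest, and the 5 profiles nearest to Sema6b) were chosen with earlier results of these data known. Alternatives were other pseudocounts, filters, scalings, a replicate block, voom on whole reads and each library left out. Promoters came from RefSeq (GRCm38.p6). Python 3.11.15 and matplotlib 3.10.9 served for tables and figures.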

Additional observations from a re-analysis of the deposited data

How the results depend on the processing

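Under the 13 alternatives Sema6b remained above 0 wherever it had a value, and it had none with a minimum mean of 5 FPKM. It passed the limit of p under 0.01 by voom (4.04), under the replicate block (1.48), without a trend (1.48), without cko replicate 1 (1.90) and after erythroid and hepatocyte genes were taken out and the libraries rescaled to one total (1.57). The number of members past the threshold was then 1 in place of 0. Under the other 7 alternatives with a value Sema6b did not pass, median-of-ratios scaling and quantile normalization among them. Members with an unadjusted p under 0.05 numbered 2 without a filter and with that removal and rescaling, and 0 with a minimum of 5 FPKM. Beside them stood 2408 of 24706, 2555 of 10778 and 1135 of 5813 tested genes. Under that minimum 126 genes were past the threshold, 119 of them among the 247 reported. The removal of erythroid and hepatocyte genes was made together with a rescaling of the libraries to one total, and the effects of these changes were not separated. With both, the members' median moved from 0.20 to 0.38, beside a shift of the median of all genes from 0.09 to 0.27. The family and pathway count moved from 3 to 9 with both and to 6 by voom, beside 1768 of 10779 genes with an unadjusted p under 0.05 as reported, 2555 of 10778 with both and 2117 of 14224 by voom. The median of all genes was -0.0078 under median-of-ratios scaling and -0.02 under quantile normalization, with 142 higher and 72 lower, and 148 and 73, genes past the threshold, against 203 and 44 as reported and 350 and 17 with that removal and rescaling.

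Signs turned for Sema4b (-0.0027 under median-of-ratios scaling, -0.048 under quantile normalization, -0.033 without wt replicate 1) and Nrp1 (-0.071, -0.12 and -0.021, and -0.068 without cko replicate 2). With each library left out, genes past the threshold ranged from 131 to 462, members past it from 0 to 1, members with an unadjusted p under 0.05 from 0 to 2, family and pathway genes from 1 to 8, the members' median from 0.10 to 0.22 and Sema6b from 1.06 to 1.90. A group left with 1 library is assumed to vary like the other.

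The replicate numbers are not said to pair the libraries. The replicate block gave 258 genes past the threshold, and the differences between replicates 1 and 2 correlated at -0.16 between the groups over genes. A crossed pairing, added after the data were seen, gave 363 genes past the threshold. With it 2 members and 5 family and pathway genes had an unadjusted p under 0.05, beside 2255 of 10779 tested genes. Depth limits Sema7a and Sema6b, which rest on 3 to 25 and 4 to 259 reads per library.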
